A study of Homo sapiens with 10 samples.

Results

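The genes examined here are 10 components of the microRNA machinery measured in MEG-01, a leukemia line of human megakaryoblasts that served in place of megakaryocytes. They are DROSHA and DGCR8, XPO5, DICER1 and TARBP2, the Argonautes AGO1, AGO2, AGO3 and AGO4, and TNRC6A, chosen by name for their place in the pathway and not by their values. All 10 were among the 17379 genes tested. Cells were nucleofected with 200 nM of a miR-1225-3p precursor or with 200 nM of a scrambled negative control precursor and harvested after 24 hours, and total RNA of each sample was hybridized to a one-color Agilent SurePrint G3 array, with 5 arrays per group. Every array in either group therefore came from cells that had received a double-stranded precursor, and no array of cells that received none was analysed here. The samples are labelled biological replicates of a single line, without saying whether they came from separate cultures, so p-values measure the spread between these arrays.

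In the nucleus, the Microprocessor, made of the nuclease DROSHA and its RNA-binding partner DGCR8, releases hairpin precursors from primary transcripts, and XPO5 carries them to the cytoplasm. There DICER1, with the cofactor TARBP2, cuts the hairpin into a duplex. An Argonaute protein keeps a strand of it as the guide, and TNRC6A, a GW182 protein, bridges the Argonaute to the deadenylases that shorten the tail of the target. A transfected precursor enters this pathway downstream of the Microprocessor. Platelets, which megakaryocytes shed, hold microRNAs and parts of this machinery, among them DICER1, TARBP2 and AGO2 as the study's authors state.

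The arms of the miR-1225 hairpin are shown because a miR-1225-3p precursor is what differed between the groups. The study's methods name only miR-1225-3p and do not say whether the precursor held the 5p sequence. Both sequences are from RefSeq (GRCh38.p14) and lie on the minus strand of chromosome 16 within the span of PKD1, a protein-coding gene. They are written 5′ to 3′ with the seed, bases 2 to 8, in capitals. The first arm lies at chr16:2090195-2090216 and the second, which comes from the other side of the same hairpin, at chr16:2090263-2090284.
hsa-miR-1225-3p: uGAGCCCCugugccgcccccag
hsa-miR-1225-5p: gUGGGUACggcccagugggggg
The seeds of the arms are different. Target sites in the 10 transcripts were not searched for.

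Each value below is a log2 signal after cyclic loess normalization, a log2 fold change is the mean of the miR-1225-3p arrays minus the mean of the scrambled arrays, and an error after ± is an SD with n = 5. A gene was called when its adjusted p from limma, with Benjamini-Hochberg adjustment over all genes tested, was under 0.05. The share of spots well above background ranged from 41.95% to 53.85% in the miR-1225-3p group and from 43.09% to 61.18% in the scrambled group. No saturated spot was found. The first principal component, which held 69.6% of the variance, placed miR-1225-3p replicate 5 at 56.74, among the scrambled arrays (48.65 to 79.87) and away from the other miR-1225-3p arrays (-133.4 to -52.98). The log2 fold changes of the 10 genes are therefore given with and without that array. For the partners, only the number called is given without it. That array was picked out from these same values, and leaving it out favours calls. P-values without it are descriptive and are not independent support. The arrays lay on 2 slides, scanned in 2 sessions, and each slide held both groups. Of 9 megakaryocyte markers on the array, 6 were well above background on all 10 arrays, among them ITGA2B, ITGB3 and GATA1, while the platelet chemokine PF4 was on none. All 5 erythroid markers measured, KLF1 among them, were above background on every array. Of the lymphoid, stromal and epithelial markers, MS4A1, COL1A2 and COL3A1 were above background on no array, whereas CD3D, CD79A and EPCAM were above background on all 10. The summed signals of the megakaryocyte list and of the stromal or epithelial list did not overlap between the groups. Over all genes tested, 35.0% were called, 17.0% higher and 18.1% lower, and 12.7% did not overlap between the groups. Of 7 megakaryocyte markers tested, 3 were called lower and 0 higher, and the log2 of the summed signal of the kept probes of the list lay between 12.77 and 13.09 with miR-1225-3p and between 13.32 and 13.54 with the scrambled precursor. For the stromal or epithelial list, with 1 of 2 tested markers higher, it lay between 11.69 and 12.86 and between 11.36 and 11.67. The erythroid list (18.56 to 19.23 and 18.99 to 19.75) and the lymphoid list (11.95 to 12.57 and 12.30 to 13.43) overlapped between the groups. Their part in the results below was not tested.

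Of the 10 genes, AGO1 and XPO5 were called by their brightest probes, both lower with miR-1225-3p, and 8 did not pass the test. That is 20% of these genes beside 35.0% of all genes tested, with 17.0% of all genes higher and 18.1% lower. Their median log2 fold change was -0.22, beside -0.060 for all genes. None of the 10 representative probes separated the groups without overlap, which 12.7% of all genes did. Exact permutation tests of the group means, not adjusted, gave p = 0.0317 for DROSHA, 0.0397 for XPO5 and 0.0476 for DICER1. For TARBP2 and AGO1 the p was 0.0238, and for the other genes it was above 0.05. Without miR-1225-3p replicate 5, 4 of the 10 were called (40%, beside 55.1% of all genes), with DROSHA and DICER1 higher and XPO5 and AGO1 lower, and 5 of the 10 separated the groups, beside 45.8% of all genes. With all arrays, the other kept AGO1 probe moved the opposite way (0.55, not called), and the other kept XPO5 probe had -0.35 (not called).

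**Figure D1:**
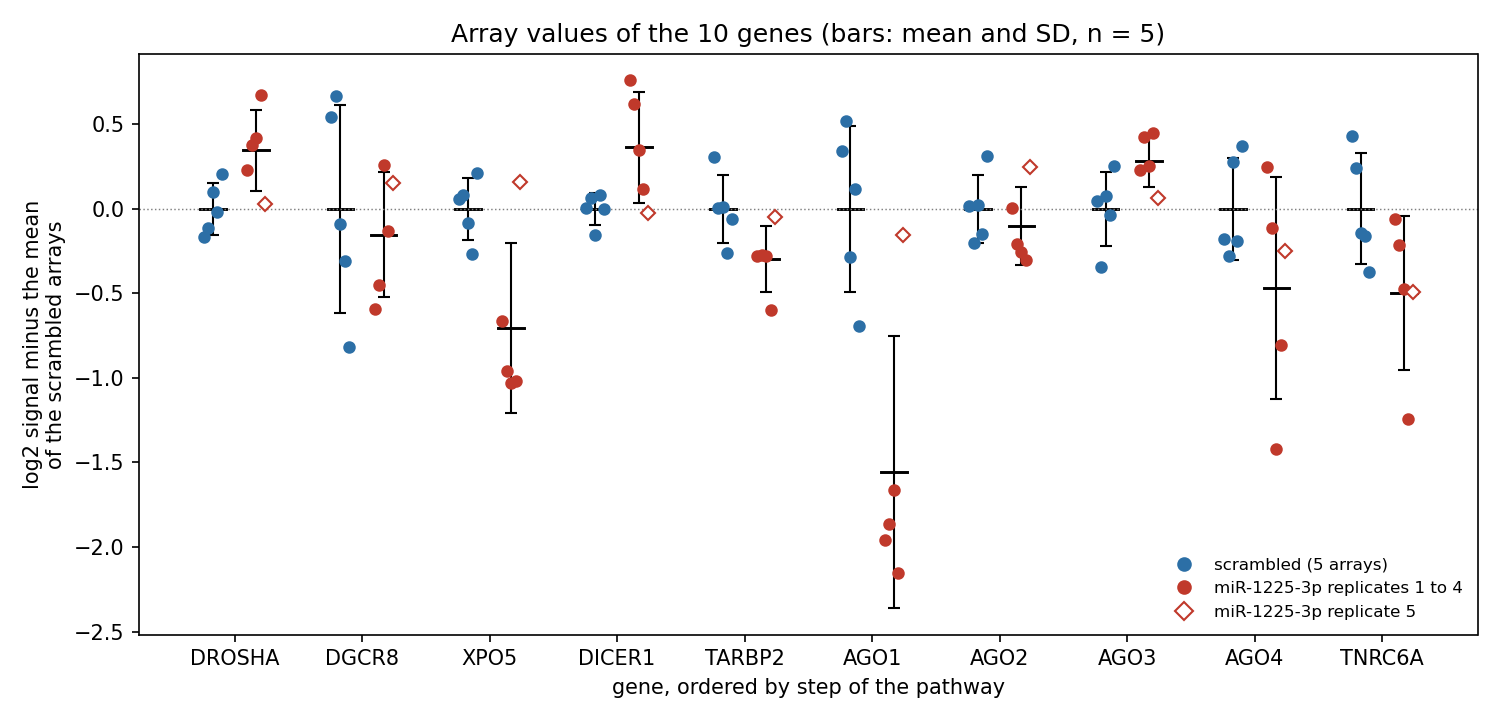
Log2 signal of each of the 10 genes on each array, as the difference from the mean of the scrambled arrays of that gene (vertical axis), with genes ordered by step of the pathway (horizontal axis). Circles are arrays, the open diamond is miR-1225-3p replicate 5, and bars give the mean and SD of the 5 arrays of a group. The 4 filled miR-1225-3p points of AGO1 and of XPO5 lie below every scrambled array, and the diamond lies among the scrambled arrays.

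DROSHA, the nuclease that opens the pathway, was not called with all arrays. The miR-1225-3p arrays read 10.43, 10.58, 10.62, 10.87 and 10.23, in order of replicate number, and the scrambled arrays 10.03, 10.09, 10.30, 10.18 and 10.41. The first 4 miR-1225-3p arrays lay above all scrambled arrays, and replicate 5 lay within their range. The difference of the means was 0.35 ± 0.15 (SE) on the log2 scale, with a 95% interval of 0.016 to 0.67 for this gene alone and an adjusted p of 0.0884 from limma. Without replicate 5, DROSHA was higher by 0.42 (adjusted p = 0.0219 from limma).

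DGCR8, which binds the primary transcript for DROSHA, was measured at a lower signal and with more spread. Its miR-1225-3p arrays read 5.71, 5.85, 6.56, 6.17 and 6.45, inside the range of the scrambled arrays, which read 6.84, 6.97, 6.21, 5.99 and 5.49. The log2 fold change of -0.15 ± 0.30 (SE) had an interval from -0.82 to 0.51 and an adjusted p of 0.697 from limma, so that neither sign could be resolved within those bounds. Without replicate 5 it was -0.22 and was not called (adjusted p = 0.5745 from limma). Within arrays, the difference between DROSHA and DGCR8 was 0.50 larger with miR-1225-3p, which did not pass an exact permutation test over arrays (p = 0.238, adjusted p = 0.262 over 11 pairs of genes). With the 75th percentile or no normalization in place of loess, this change was 0.94 (exact permutation test, p = 0.0714).

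XPO5, the exportin for hairpin precursors, was called lower by its brightest probe, 1.63-fold, with a log2 fold change of -0.70 ± 0.23 (SE, 95% interval -1.22 to -0.19, adjusted p = 0.0409 from limma). On this probe (A_33_P3228366) the miR-1225-3p arrays read 6.61, 6.31, 6.24, 6.25 and 7.43, and the scrambled arrays 7.33, 7.35, 7.19, 7.01 and 7.49. The first 4 miR-1225-3p arrays were lower than every scrambled array, whereas replicate 5 was above 4 of the 5 scrambled arrays. Without replicate 5 the log2 fold change was -0.91 (adjusted p = 0.000562 from limma). The call was close to the threshold and was lost when any other array was left out, with log2 fold changes between -0.77 and -0.64 in those fits. With slide as a block it was -0.71 (adjusted p = 0.0576 from limma), within slide 1 -0.90 (adjusted p = 0.0314) and within slide 2, which holds replicate 5, -0.52 (adjusted p = 0.559).

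Of the other XPO5 probes, A_23_P256855 gave a log2 fold change of -0.35 ± 0.34 (SE) and was not called (adjusted p = 0.412 from limma over 20648 kept probes). Its miR-1225-3p arrays read 7.002, 6.11, 6.17, 5.12 and 6.87 and its scrambled arrays 6.90, 6.19, 6.63, 6.37 and 6.95, so that the groups overlapped. A_33_P3228375 was not well above background on any miR-1225-3p array and was above it on 1 of 5 scrambled arrays. It was not tested, and no fold is given for it.

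DICER1, the nuclease that cuts the exported hairpin, had a log2 fold change of 0.36 ± 0.17 (SE, 95% interval -0.0041 to 0.73) and did not pass the test (adjusted p = 0.105 from limma). The miR-1225-3p arrays read 9.64, 9.495, 9.23, 8.998 and 8.85, and the scrambled arrays lay close together at 8.88, 8.94, 8.73, 8.96 and 8.88. Replicates 1 to 4 with miR-1225-3p were above all scrambled arrays, and replicate 5 was within them. Without it DICER1 was called higher, by 0.46 (adjusted p = 0.0239 from limma). The difference was larger on slide 1 (0.73, adjusted p = 0.0347) than on slide 2 (0.081, adjusted p = 0.868), and whether the slides differ was not tested.

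TARBP2, the RNA-binding cofactor of DICER1, read 8.43, 8.43, 8.43, 8.11 and 8.66 with miR-1225-3p and 9.01, 8.71, 8.72, 8.45 and 8.65 with the scrambled precursor. Replicate 5 was the only miR-1225-3p array inside the scrambled range. This gave a log2 fold change of -0.30 ± 0.15 (SE, 95% interval -0.62 to 0.033), and the adjusted p from limma was 0.133 with every array and 0.0525 without replicate 5. The within-array difference of DICER1 and TARBP2 was 0.66 larger with miR-1225-3p, with p = 0.0317 by an exact permutation test and 0.0873 after adjustment over the 11 pairs. Without replicate 5 this difference was 0.81 (exact permutation test, adjusted p = 0.0218).

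The within-array change of XPO5 relative to DICER1 was -1.07 on the log2 scale (exact permutation test, p = 0.0397, adjusted p = 0.0873), and -1.36 without replicate 5 (adjusted p = 0.0218). For DROSHA relative to DICER1 the within-array change was -0.019 (exact permutation test, p = 0.937). The within-array differences of these genes had SDs of 0.40 with miR-1225-3p and 0.21 with the scrambled precursor, which limits the size of an unequal change that could be seen.

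AGO1, an Argonaute that lacks efficient slicing activity, had the lowest adjusted p and the largest fold change of the 10 genes. Its representative probe, A_33_P3402116, was printed in 2 spots per array. The miR-1225-3p arrays read 8.03, 8.13, 8.33, 7.84 and 9.84, and the scrambled arrays 10.33, 10.51, 9.71, 10.11 and 9.30. Of the miR-1225-3p arrays, 4 were lower than every scrambled array, and replicate 5 was above the lowest 2 of them. The log2 fold change was -1.56 ± 0.38 (SE, 95% interval -2.41 to -0.71), or 2.94-fold lower (adjusted p = 0.0185 from limma). It was -1.90 without replicate 5 (adjusted p = 0.000292 from limma) and stayed called whichever array was left out. Within slide 1 it was -1.68 (adjusted p = 0.0252 from limma) and within slide 2 -1.65 (adjusted p = 0.494). In that slide alone limma called 0 genes, with 1235 at an unadjusted p under 0.05.

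The other kept AGO1 probe moved the opposite way. A_33_P3380587, designed to the same RefSeq transcript, read 5.70, 5.69, 5.92, 6.61 and 5.69 with miR-1225-3p and 4.95, 5.55, 5.65, 5.43 and 5.28 with the scrambled precursor. All 5 miR-1225-3p arrays were above all 5 scrambled arrays, the lowest by a margin of less than 0.1 on the log2 scale, and the exact permutation p was 0.00794, the smallest that 5 arrays against 5 can give. A log2 fold change of 0.55 ± 0.21 (SE) was not called (adjusted p = 0.0676, limma across the kept probes), and the probe was well above background on 5 miR-1225-3p arrays and 3 scrambled arrays. Without replicate 5 it was 0.61 (adjusted p = 0.0422), and without normalization between arrays 0.061 (adjusted p = 0.946). Averaging the probes of each gene gave -0.50 for AGO1, which was not called (adjusted p = 0.0727 from limma). The direction reported for AGO1 therefore holds for its brighter probe, and which stretch of the transcript each probe reads was not examined here.

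AGO2, the Argonaute that can cut its target, was measured by a probe in 10 spots per array, whose SD within an array was between 0.050 and 0.079. The miR-1225-3p arrays read 11.90, 11.69, 11.64, 11.59 and 12.14, and the scrambled arrays 11.91, 11.69, 11.91, 11.74 and 12.20. Replicate 5 was the highest of the miR-1225-3p arrays, and the groups overlapped over most of their range. The group means were 11.79 ± 0.23 and 11.89 ± 0.20, so that the spread between arrays was wider than the spread between spots. Their difference of -0.10 ± 0.15 (SE) was not called (adjusted p = 0.616 from limma), and its 95% interval ran from -0.44 to 0.24. The sign was reversed when arrays were scaled to their 75th percentile in place of loess (0.41, adjusted p = 0.0502), a scaling that moved the median of all genes from -0.060 to 0.16.

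AGO3 was represented by A_33_P3244882, which read 10.38, 10.58, 10.41, 10.60 and 10.22 with miR-1225-3p and 10.20, 9.81, 10.23, 10.12 and 10.41 with the scrambled precursor. The groups overlapped, and the log2 fold change of 0.28 ± 0.14 (SE) was not called (adjusted p = 0.138 from limma). The other probe, A_23_P97021, read 10.29, 10.33, 10.51, 10.51 and 10.01 with miR-1225-3p and 9.83, 9.83, 9.76, 9.88 and 9.76 in the scrambled group, whose arrays lay close together (SD 0.053). Here the groups did not overlap, and the probe was called higher, by 0.52 ± 0.13 (SE, 95% interval 0.23 to 0.81, adjusted p = 0.0192, limma across the kept probes). Its exact permutation p was 0.00794, the same minimum as for the dimmer AGO1 probe. Where the probes were averaged, AGO3 was called higher at 0.40 (adjusted p = 0.0345 from limma). Both probes had a positive fold change, and they fell on either side of the threshold. Without replicate 5 the representative probe had 0.33 (adjusted p = 0.0640, limma across the kept probes) and the other 0.59 (adjusted p = 0.00117).

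AGO4 read 6.73, 6.37, 5.06, 5.68 and 6.23 with miR-1225-3p and 6.30, 6.20, 6.75, 6.29 and 6.85 with the scrambled precursor. Its probe was well above background in 4 of the 5 miR-1225-3p samples and in each scrambled sample. Replicates 3 and 4 of the miR-1225-3p group were below every scrambled array, and the other miR-1225-3p arrays were among the scrambled ones. The change of -0.47 ± 0.30 was not called (SE, 95% interval -1.13 to 0.20, adjusted p = 0.231 from limma). Without replicate 5 it was -0.52 and was not called (adjusted p = 0.201 from limma).

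AGO4, AGO1 and AGO3 follow each other in that order on chromosome 1, with no other coding gene listed between them, while AGO2 lies on chromosome 8. Side by side, the log2 fold changes of the 3 neighbours were -0.47, -1.56 by the brighter AGO1 probe and 0.28. Within arrays, the change of AGO1 relative to AGO3 was -1.84 (exact permutation test, p = 0.0238), that of AGO1 relative to AGO2 -1.46 (p = 0.0159) and that of AGO3 relative to AGO4 0.75 (p = 0.0317, and 1.19 with the 75th percentile), none of which passed after adjustment over the 11 pairs (adjusted p = 0.0873 for each). None of the 11 pairs passed with all arrays, and 5 had an exact p under 0.05 before adjustment. Without replicate 5, an array picked out from these same data, 5 pairs passed. Among these, AGO1 fell by 2.24 relative to AGO3 (adjusted p = 0.0218), AGO1 fell by 1.71 relative to AGO2 (adjusted p = 0.0349) and AGO2 fell by 0.52 relative to AGO3 (adjusted p = 0.0218). These AGO1 differences are of the brighter probe. With the dimmer AGO1 probe and all arrays, the changes were 0.27 relative to AGO3 and 0.65 relative to AGO2 (exact permutation test, adjusted p = 0.314 and 0.145), and with the probes averaged -0.91 and -0.40 (adjusted p = 0.0873 and 0.247). With all arrays the change of AGO2 relative to AGO3 was -0.38 (exact permutation test, adjusted p = 0.145).

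**Figure D2:**
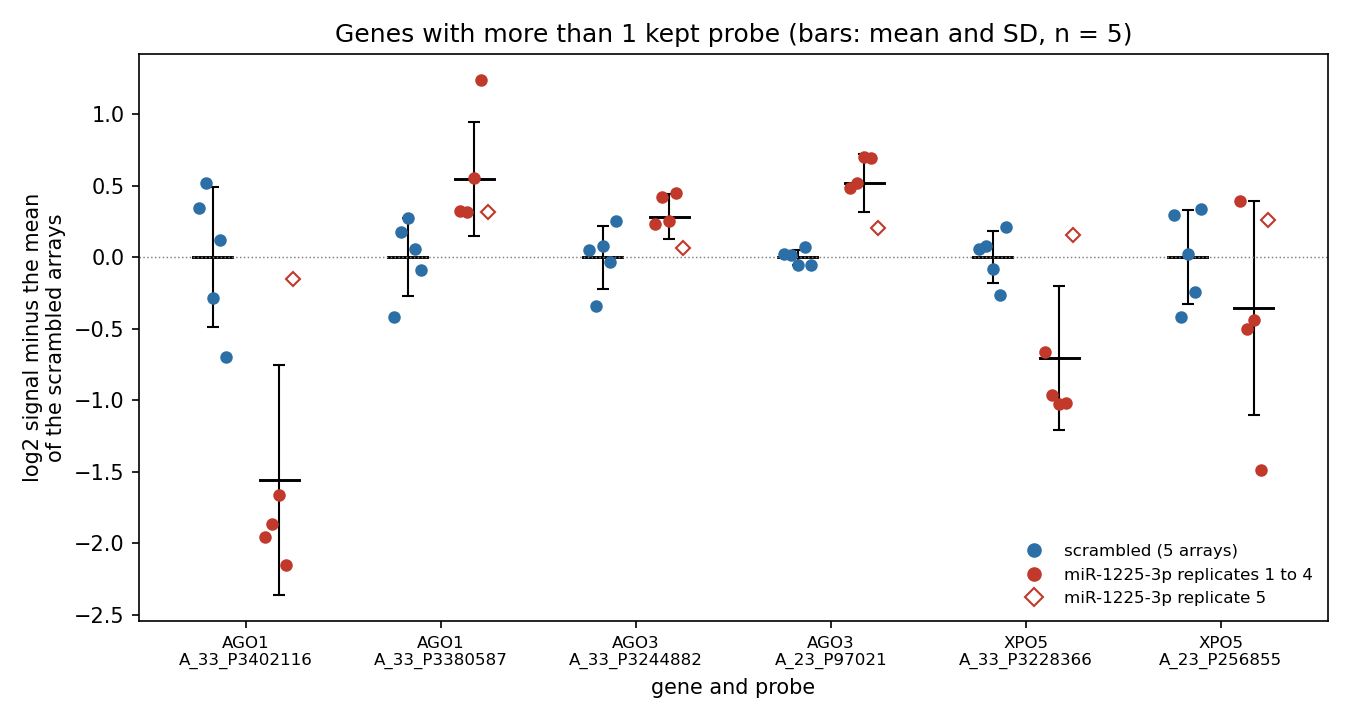
Log2 signal on each array of the kept probes of AGO1, AGO3 and XPO5, the genes with more than 1 kept probe, as the difference from the mean of the scrambled arrays of that probe (vertical axis). Circles are arrays, the open diamond is miR-1225-3p replicate 5, and bars give the mean and SD of 5 arrays. The AGO1 probes differ in direction, with log2 fold changes of -1.56 and 0.55, whereas the AGO3 probes (0.28 and 0.52) and the XPO5 probes (-0.70 and -0.35) each share a sign.

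TNRC6A, the GW182 protein that binds an Argonaute and recruits deadenylases, read 7.81, 7.65, 7.39, 6.62 and 7.38 with miR-1225-3p and 8.30, 8.11, 7.72, 7.71 and 7.50 with the scrambled precursor. The groups overlapped, and 3 of the miR-1225-3p arrays lay below the lowest scrambled array. On the log2 scale the difference was -0.50 ± 0.24 (SE, 95% interval -1.03 to 0.039), with an adjusted p of 0.124 from limma, and leaving out replicate 5 moved it to -0.50 (adjusted p = 0.130). The within-array difference between AGO2 and TNRC6A changed by 0.40 (exact permutation test, p = 0.190). With the 75th percentile or no normalization it was 0.77 (exact permutation test, p = 0.0238, adjusted p = 0.0524).

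**Figure D3:**
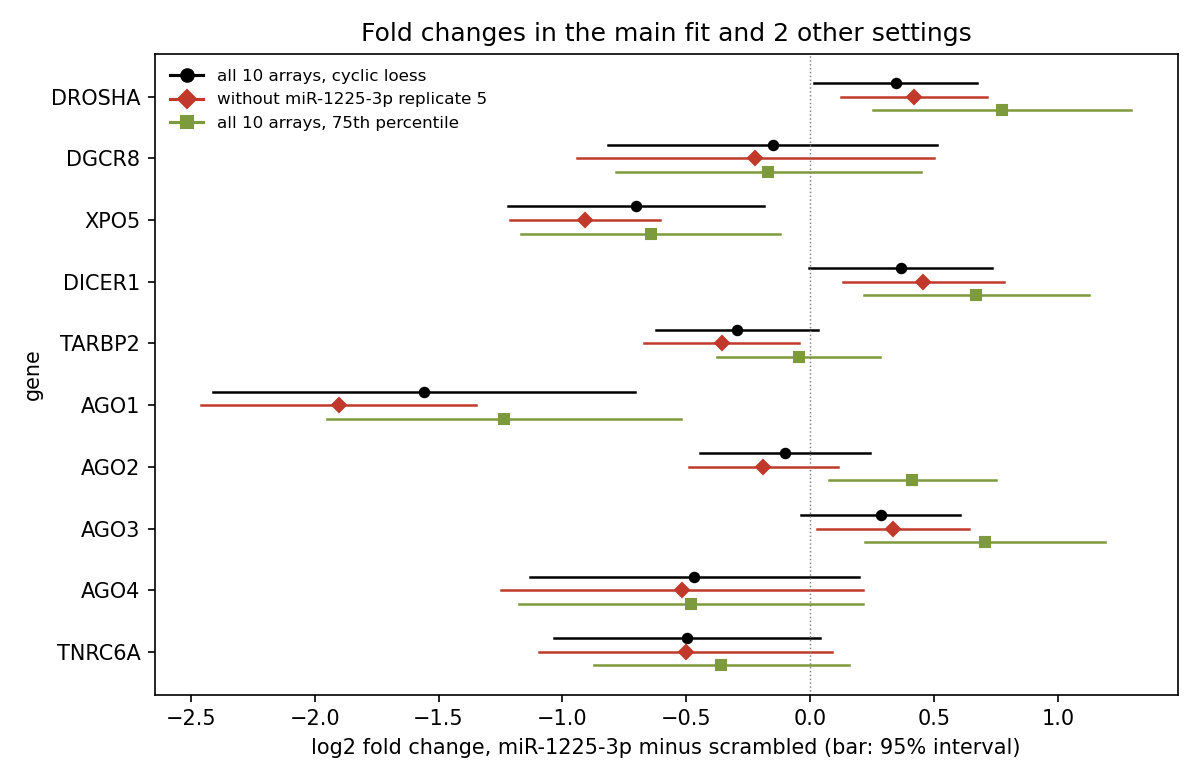
Log2 fold change of each gene, miR-1225-3p minus scrambled (horizontal axis), with bars for the 95% interval, with all arrays and cyclic loess (black circles), without miR-1225-3p replicate 5 (red diamonds), and with all arrays scaled to the 75th percentile (green squares). AGO1, by its brighter probe, and XPO5 are below 0 with intervals that leave out 0 in all 3 settings. The dimmer AGO1 probe had 0.55 with all arrays and cyclic loess, and XPO5 kept its call in 8 of 26 alternatives. AGO2 lies at -0.10, -0.19 and 0.41, and its sign depends on the scaling.

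The scaling of the arrays set the counts as well. With the 75th percentile, 5 of the 10 genes were called, beside 41.1% of all genes. DROSHA was then higher by 0.77 (adjusted p = 0.0272 from limma), DICER1 by 0.67 (adjusted p = 0.0277) and AGO3 by 0.71 (adjusted p = 0.0287). XPO5 (-0.64, adjusted p = 0.0495) and AGO1 by its brighter probe (-1.24, adjusted p = 0.0176) were lower. The dimmer AGO1 probe had 0.48 (adjusted p = 0.0894, limma across the kept probes). Relative to the median of all genes under the same scaling, 0.16, the genes kept the signs they had under loess except AGO2.

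The genes whose signal followed the brighter AGO1 probe most closely over the 10 arrays were MIF, a cytokine, and TFEB, a transcription factor of lysosomal genes, each with Pearson r = 0.993, and a probe for a long intergenic RNA with r = 0.991. These values are a description, since the points share the difference between the groups and the position of replicate 5. TFEB read 8.05, 8.05, 8.64, 7.50 and 10.11 with miR-1225-3p and 10.76, 10.82, 9.93, 10.51 and 9.56 with the scrambled precursor, and had the same arrays high and low as the brighter AGO1 probe.

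The partners of these genes were described from 7 lists of 68 genes, grouped by step. Of 65 partners tested, 12 were higher and 17 lower with miR-1225-3p, and 36 did not pass (44.6% called, beside 35.0% of all genes). Their median log2 fold change was -0.087. By list, the share called was 45.5% for nuclear processing, 0% for export and import and 60% for dicing and loading. It was 50% for GW182 paralogues and silencing, 33.3% for deadenylation, 55.6% for decapping and decay and 37.5% for precursor and end turnover. Each stands beside 35.0% of all genes, 17.0% higher and 18.1% lower, and the lists held only 3 to 12 tested genes. With the 75th percentile the balance of the 65 partners turned, to 22 higher and 12 lower. All genes turned the same way, from 2947 higher and 3144 lower to 4562 and 2585. The groups did not overlap for 15 of the 65 (23.1%, beside 12.7% of all genes). Without replicate 5, 42 of the 65 were called (64.6%, beside 55.1% of all genes). The 29 called partners kept their sign under the 75th percentile, quantile normalization and no normalization between arrays. This reuses the arrays that gave the calls and is no independent support. With no normalization, 3 of the 65 were called, beside 1266 of 17379 genes. With slide as a block, 25 partners were called, and of those named below NCBP2, TNRC6B, CNOT8 and EDC4 lost their calls (adjusted p = 0.0534, 0.0651, 0.0634 and 0.0567 from limma). Values named below are from the probe that represents the gene. Of the called partners named by step below, the groups overlapped for NCBP2, ILF2, DNAJA2, HSPA8, STIP1, LIMD1, CNOT3, DCP1B, EDC4, LSM1 and PARN.

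Among 11 nuclear partners, 2 were higher and 3 lower. NCBP1, the large subunit of the nuclear cap-binding complex, rose by 1.25 ± 0.27 (SE, adjusted p = 0.0147 from limma), and its miR-1225-3p arrays, at 7.31, 7.51, 7.33, 7.67 and 6.12, were all above the scrambled arrays, which lay between 5.79 and 6.09. Its small subunit NCBP2 rose by 0.63 (adjusted p = 0.0409). ADAR, which edits double-stranded RNA, fell by 1.18 (adjusted p = 0.0142) without overlap of the groups. ILF2, a protein of double-stranded RNA complexes, fell by 2.19 (adjusted p = 0.0280), with miR-1225-3p arrays at 11.78, 10.26, 9.63, 9.01 and 12.82 and scrambled arrays between 12.47 and 13.16. Replicate 5 was within the scrambled range for ILF2 and just above it for NCBP1.

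Of the 3 genes of export and import besides XPO5, limma called 0 with cyclic loess, and 0 had an unadjusted p under 0.05. The log2 fold changes were 0.041 for RAN, the GTPase that drives exportins (adjusted p = 0.786), 0.23 for XPO1, the exportin of proteins and other RNAs (adjusted p = 0.171), and -0.059 for IPO8, an importin reported to bind Argonautes (adjusted p = 0.806). With the 75th percentile RAN was called higher by 0.76 (adjusted p = 0.0194 from limma) and XPO1 by 0.63 (adjusted p = 0.0310). IPO8 was not called in that setting (0.13, adjusted p = 0.636). The other kept RAN probe had -0.39 with cyclic loess (adjusted p = 0.297 over kept probes).

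Of 10 partners in dicing and in loading of Argonautes, 3 were higher and 3 lower, in part among the chaperones that open an Argonaute for the duplex. DNAJA2, a J-domain cochaperone, rose by 1.15 (adjusted p = 0.0180 from limma), while HSPA8, the constitutive HSP70, fell by 1.29 (adjusted p = 0.0346, and 0.0539 with the 75th percentile). STIP1, the adaptor between HSP70 and HSP90, fell by 1.55 (adjusted p = 0.0317), and its other kept probe was also lower (-2.52, adjusted p = 0.0231 over kept probes). For HSPA8 and STIP1, miR-1225-3p replicate 5 read 12.77 and 9.45, above every scrambled array. For DNAJA2 it read 6.47, within the scrambled range. HSP90AA1 rose by 0.56 (adjusted p = 0.0166), but the other probes kept for it moved by -0.032 and -0.54 on the log2 scale (adjusted p = 0.866 and 0.0930), so that the direction held for the brightest probe.

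Among 12 GW182 paralogues and silencing partners, 1 was higher and 5 lower. TNRC6B, a paralogue of TNRC6A, read 7.71, 7.46, 6.58, 6.53 and 7.77 with miR-1225-3p and between 7.81 and 8.15 with the scrambled precursor. No array of a group entered the range of the other, and TNRC6B fell by 0.79 ± 0.27 (SE, adjusted p = 0.0430 from limma). Its call was also lost with the 75th percentile (adjusted p = 0.0575) and with quantile normalization (adjusted p = 0.0620). For the other paralogue, TNRC6C, the difference was -0.057 (adjusted p = 0.798). FMR1, an RNA-binding repressor of translation, fell by 0.67 (adjusted p = 0.0153), with -0.44 at its other kept probe (adjusted p = 0.0898 over kept probes). LIMD1, a scaffold between Argonaute and the cap-binding factor, rose by 0.96 (adjusted p = 0.0239).

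In the deadenylation list, 2 of 12 were higher and 2 lower. CNOT3, a subunit of the CCR4-NOT complex, rose by 0.64 (adjusted p = 0.0256 from limma), and CNOT8, a deadenylase of the same complex, fell by 1.46 (adjusted p = 0.0417). The CNOT8 arrays read 9.03, 8.12, 7.35, 6.35 and 9.23 with miR-1225-3p and between 9.24 and 9.65 with the scrambled precursor, so that replicates 1 and 5 were close to the scrambled range and replicate 4 was farthest from it.

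Decapping and decay had 2 higher and 3 lower of 9. DCP1B, a cofactor of the decapping enzyme, rose by 1.27 (adjusted p = 0.0219 from limma), and EDC4, its scaffold, by 0.45 (adjusted p = 0.0376), while the other kept EDC4 probe had -0.36 (adjusted p = 0.639 over kept probes). EDC3, another enhancer of decapping, fell by 1.11 ± 0.20 (SE, adjusted p = 0.0136), with miR-1225-3p arrays at 7.60, 7.45, 7.31, 7.62 and 8.37, below the lowest scrambled array of 8.60. LSM1, a subunit of the ring that binds shortened tails, fell by 1.53 (adjusted p = 0.0321).

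Of 8 tested genes that act on precursors or on microRNA ends, 2 were higher and 1 lower. ZSWIM8, the ubiquitin ligase adaptor of target-directed microRNA decay, read 10.88, 11.21, 11.43, 11.77 and 10.40 with miR-1225-3p and between 10.02 and 10.40 with the scrambled precursor. It rose by 0.92 ± 0.24 (SE, adjusted p = 0.0202 from limma), and its lowest miR-1225-3p array lay just above its highest scrambled array. PARN, a poly(A)-specific ribonuclease that trims small RNA ends, rose by 0.59 (adjusted p = 0.0224).

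**Figure D4:**
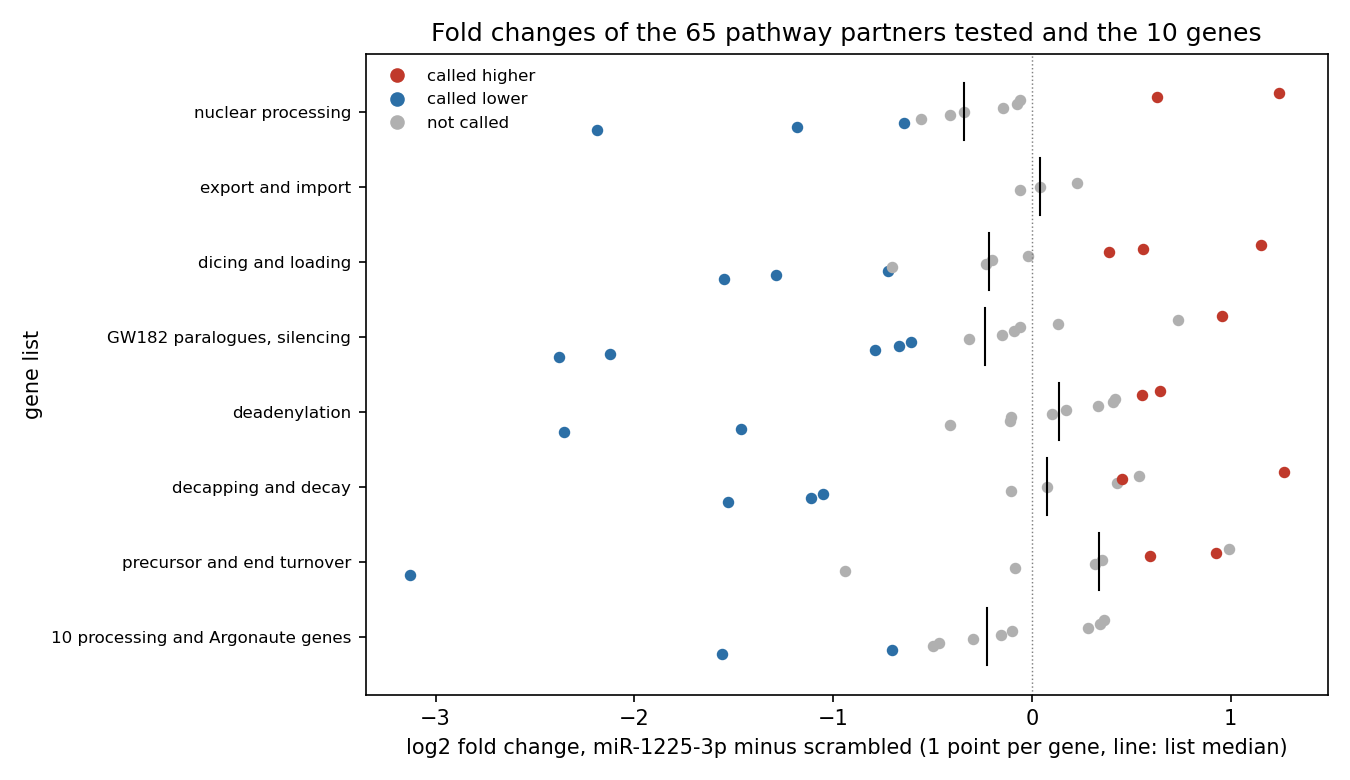
Log2 fold change, miR-1225-3p minus scrambled (horizontal axis), of the 65 partners tested, by list, and of the 10 processing and Argonaute genes in the bottom row. Each point is a gene, red where called higher, blue where called lower and grey where not called, and the vertical line is the median of the list. Calls are with cyclic loess and all arrays. Called genes lie on either side of 0 in 6 of the 7 partner lists, and export and import holds none.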

How the data were processed

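The genes and lists were chosen with earlier results of these data known. The groups come from the sample labels. The source label of the scrambled samples reads as untreated, whereas their titles and the study's methods describe a control precursor, which was followed. The authors deposited Agilent Feature Extraction 10.7.3.1 output (version per the submitters' processing notes, another one being named in the methods), in which each spot has a background-corrected processed signal and median signal and background, all intensity values. They also deposited normalized log2 values of 29271 probes, used as an alternative, whose correlation per array with the values here, after centring probes, was 0.848 to 0.988.

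Control spots (4259) were left out, and cyclic loess in limma 3.58.1 (R 4.3.3, fast method, 3 iterations) was applied to the log2 of the processed signal. Outlier spots were set missing and spots averaged per probe. Probes had to be well above background on 3 or more of the 5 arrays of a group (20648 of 42405 were), a probe in several spots counting as above where at least 50% of its spots were. The kept probe with the highest mean represented a gene. Names come from RefSeq accessions matched to the GRCh38.p14 gene table (24910 probes matched). Of the 14 probes of the 10 genes, 13 were kept. Groups were compared with limma (lmFit, eBayes), and within-array differences of 11 pairs of genes with two-sided exact permutation tests. The same exact test, not adjusted, was also run on the 10 genes and their probes. The partners named are, per list, the 2 largest rises and 2 largest falls among called genes above background on all 10 arrays. This rule left out called genes that were not above background on every array. They were PNPT1 (log2 fold change -3.13), FXR2 (-2.38), CNOT1 (-2.36), MOV10 (-2.12) and PAN2 (0.55). TNRC6C, RAN, XPO1 and IPO8 were named besides, after their values were seen. For the gene with the lowest adjusted p, the 3 genes of highest correlation are named. Some genes of the lists are not reported by name here. The scripts were tested on simulated data. Alternatives covered normalization, background, filter, flags, probe choice, test, blocks and leaving out each array. Normexp (offset 50) was run on the median signal, since the mean signal is not used here. The labels do not say whether same-numbered arrays were handled together, and arrays were not paired. Correlations of same-numbered deviations were -0.401 to 0.0723, too few values to exclude a pairing. The number of arrays limits the precision.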

Additional observations from a re-analysis of the deposited data

Results flagged for a closer look

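In 28 groups of 5 arrays, which are the 14 probes of the 10 genes in either condition, 2 arrays stood farther from the rest of their group than Dixon's critical value. Chance flags about 1 in 20 such groups. On the brighter AGO1 probe, A_33_P3402116, miR-1225-3p replicate 5 read 9.8358, where the nearest other array of the group read 8.3281 and the lowest 7.837. This is the array that also lies among the scrambled arrays on the first principal component. On the dimmer AGO1 probe, A_33_P3380587, miR-1225-3p replicate 4 read 6.6113, where the nearest read 5.9226 and the lowest 5.6857.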

How the results depend on the processing

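With cyclic loess and all arrays, 2 of the 10 genes, 29 of 65 partners and 6091 of 17379 genes were called. The count for the 10 genes was 5 with array weights or the 75th percentile, 1 with quantile normalization, no normalization between arrays, normexp, no filter on dim probes, the mean of the probes, the methods' t-test after Benjamini-Hochberg adjustment, slide as a block, and the dimmer AGO1 probe (an alternative chosen after seeing the data), and 0 with the replicate block or within slide 2. Leaving out an array gave 1 to 4, with 4 only without miR-1225-3p replicate 5. For the partners the count was 3 with no normalization, 17 with no filter, 47 with array weights, 0 with the replicate block or within slide 2, and 7 to 42 with an array left out. For all genes it was 1266, 3411, 12389, 0 and 0 in the same settings, and 2152 to 9583. Without adjustment, limma gave a p under 0.05 for 3 of the 10 genes, 35 partners and 7474 genes with the replicate block, and for 0, 1 and 1235 within slide 2. Pairs of genes that passed ranged from 0 to 5 with an array left out. The split of all calls was 4562 higher and 2585 lower with the 75th percentile, 3636 and 2511 after quantile normalization, and 174 and 1092 with none, beside 2947 and 3144.

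A sign was reversed for DGCR8 with quantile normalization (0.024) and without scrambled replicate 2 (leaving out an array gave -0.36 to 0.024), for AGO2 with the 75th percentile (0.41) and within slide 2 (0.070), and for AGO1 with its dimmer probe (0.55). The AGO1 call was also lost with the replicate block (adjusted p = 0.0619 from limma), which pairs arrays by replicate number, a pairing that the labels do not state. AGO4 has no value where all 10 arrays had to be above background. XPO5 kept its call in 8 of 26 alternatives and its sign in all 26. The causes were not tested. Signals near background, as for DGCR8, AGO4 and the dimmer AGO1 probe, limit how small a change can be seen.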
